A study of Mus musculus with 3 samples.

Results

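A set of 10 immediate early genes were described in vessels isolated from mouse brain. The members were Fos, Fosb, Jun, Junb, Atf3, Egr1, Klf4, Nr4a1, Dusp1 and Ier2, 10 of the 29917 genes named in the count tables. They were chosen by name, as a sign of stress during vessel isolation, and each gene was represented by its transcript row with the largest total count. Polyadenylated RNA was sequenced in 3 libraries, 1 per group, each from the pooled vessels of 3 male mice aged 3 months. The C57BL6 WT library carried no deleted allele and came from the C57BL6 background. The C57BL6-BALB/c WT library was also wild type, on a mixed background. The Cx30-/- library came from mice in which Gjb6, the gene of the astrocytic gap junction protein connexin 30, is deleted in every tissue. Its sample label gives the background as C57BL6, whereas the methods of the study give the mixed background for these mice. There were no replicates, so a difference between libraries cannot be set against a spread between animals or preparations, and background, pool and preparation cannot be told apart.

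Immediate early genes are transcribed within minutes of a stimulus and without new protein synthesis, because the factors that switch them on, such as CREB and serum response factor, already sit in the resting cell. Most of them encode transcription factors, which start a later wave of genes, and others encode brakes on the signal, such as the phosphatase DUSP1. In brain they are known for their induction by neuronal activity, and in isolated tissue for their induction by dissection and enzymatic or mechanical handling.

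The deposited transcript counts summed to between 50375426 and 60725557 per library, and each member had between 207 and 11646 counts. The deleted gene Gjb6 had 2899 counts in C57BL6 WT, 2246 in C57BL6-BALB/c WT and 96 in Cx30-/- vessels, in the order the labels call for. The 10 endothelial markers, among them Cldn5 and Pecam1, were detected in every library, with between 430 and 45339 normalized counts each. Their summed level was 141017 normalized counts in the C57BL6 WT library, 90053 in C57BL6-BALB/c WT and 165321 in Cx30-/- vessels. The 8 neuron markers summed to 40196, 48542 and 28143 normalized counts in the same order, so the preparations also held neuronal RNA. In bulk RNA, fewer cells of a type and less RNA per cell cannot be told apart.

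The 250 bases before the transcription start were taken from RefSeq promoters on GRCm38.p6 for 8 of the members. Egr1 and Ier2 were not searched. The letters TGACG, the core of the cAMP response element that CREB binds, were searched on both strands because the CREB pathway acts on many genes of this class. They were present in 7 of the 8 member promoters, Jun being the exception, and in 17.8% of the 32851 promoters of the same length. The core of Atf3 lies in a GENCODE exon and that of Fosb within the RefSeq extent of the gene, and the parts of these promoters outside GENCODE exons and the RefSeq gene held 0 cores. The windows of Atf3, Nr4a1 and Dusp1 lie inside the GENCODE extents of these genes. The window of Nr4a1 held 4 cores, all of them thus within the gene. The whole element TGACGTCA, which contains the core, was present in 1 of the 8, that of Dusp1, and in 1.55% of all promoters. The AP-1 element TGANTCA and the serum response CArG box were present in 0 of the 8, against 6.75% and 1.47% of all promoters. Only these 250 bases and exact matches to the patterns were searched. Elements farther upstream or with other letters would be missed, so the 0 does not show that these genes lack them. A TATA box, searched as TATAA, was present in 2 of the 8, those of Fos and Klf4, and in 22.8% of all promoters. A match of letters is a description of the sequence and not of a bound site. The promoters of Fos, Jun and Dusp1 are shown because Fos was highest and Jun and Dusp1 lowest in the C57BL6-BALB/c WT library, with any TGACG core, in either orientation (CGTCA), and any TATA box in capitals. The Dusp1 window is shortened to the bases outside GENCODE exons and the RefSeq gene.
Fos, chr12:85473640-85473889, + strand: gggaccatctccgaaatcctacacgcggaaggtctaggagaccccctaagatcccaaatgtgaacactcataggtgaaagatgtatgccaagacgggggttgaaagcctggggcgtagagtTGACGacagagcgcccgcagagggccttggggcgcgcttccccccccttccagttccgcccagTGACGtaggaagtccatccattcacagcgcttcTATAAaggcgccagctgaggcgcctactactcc
Jun, chr4:95052223-95052472, - strand: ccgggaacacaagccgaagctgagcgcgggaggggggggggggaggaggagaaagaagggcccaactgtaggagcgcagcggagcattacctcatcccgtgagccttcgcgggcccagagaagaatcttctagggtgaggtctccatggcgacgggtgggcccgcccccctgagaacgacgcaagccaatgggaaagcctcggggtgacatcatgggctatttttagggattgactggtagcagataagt
Dusp1, chr17:26508520-26508722, - strand: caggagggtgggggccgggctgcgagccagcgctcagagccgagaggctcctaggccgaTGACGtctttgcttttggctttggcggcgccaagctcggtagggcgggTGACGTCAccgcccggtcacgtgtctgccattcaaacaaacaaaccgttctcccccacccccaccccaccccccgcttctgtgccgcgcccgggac

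For the other members that hold the core, the bases around 1 core are shown, so that its flanks can be compared.
Fosb, chr7:19310093-19310113, - strand: gttgcgggTGACGcaagcgcg
Atf3, chr1:191183334-191183348, - strand: tagcattaCGTCAgc
Junb, chr8:84978842-84978862, - strand: cctgacagTGACGcgagccgc
Klf4, chr4:55532695-55532715, - strand: ctggctggCGTCAcggcctgg
Nr4a1, chr15:101266798-101266818, + strand: tctccatgCGTCAcggagcgc
The core began 60 bases before the start used for the promoter window of Fosb, 7 before that of Atf3 and 106 before that of Junb. For Fosb this start lies inside the RefSeq gene.

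Most members were abundant in all libraries. Per kilobase of transcript, and ranked among the genes with a count in the library, 8 of the 10, all but Fosb and Atf3, lay at the 77.5 percentile or above in every library. Nr4a1, an orphan nuclear receptor, had the highest level per kilobase of the 10, at 4122 normalized counts per kilobase in C57BL6 WT, 4968 in C57BL6-BALB/c WT and 3689 in Cx30-/- vessels, which placed it at the 99.4, 99.6 and 99.3 percentile. Atf3 was among the lowest, between the 46.9 and 64.6 percentile. Fosb had the widest range, from the 50.4 percentile in Cx30-/- to the 97.4 percentile in C57BL6-BALB/c WT vessels, with the C57BL6 WT library at 61.5.

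**Figure D1:**
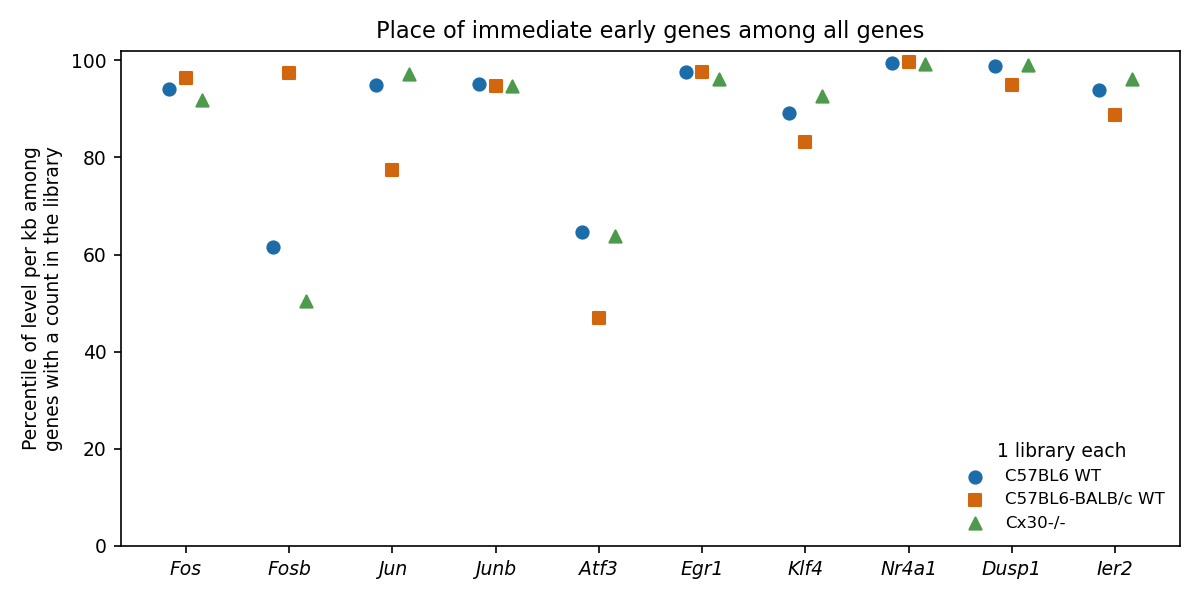
Percentile of each member's level per kilobase of transcript (vertical axis) among the genes with a count in the same library, for the 3 libraries (1 point each). Nr4a1 lies at 99.3 or above in each library, while Fosb moves from 50.4 in Cx30-/- to 97.4 in C57BL6-BALB/c WT and Atf3 stays at or below 64.6.

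Among the AP-1 subunits, the C57BL6-BALB/c WT library held high Fosb and low Jun and Atf3. Fosb (ENSMUSG00000003545; GRCm38 chromosome 7, 19302696 to 19310051, minus strand), a FOS family partner of the JUN proteins, had 840.0 normalized counts in the C57BL6 WT library, 6510 in C57BL6-BALB/c WT and 515.1 in Cx30-/- vessels. The C57BL6-BALB/c WT library was thus far above the other two. It was 7.75-fold above C57BL6 WT, a log2 ratio of 2.95 (95% interval 2.86 to 3.05), the 18th highest ratio of 14791 genes. Intervals are exact binomial intervals of the raw counts and cover counting error only. In Cx30-/- vessels Fosb was 12.6-fold below the C57BL6-BALB/c WT library, a log2 ratio of -3.66 (-3.80 to -3.53) and the 5th lowest of 14891 genes. Against C57BL6 WT it was 1.63-fold lower in Cx30-/-, a log2 ratio of -0.71 (-0.87 to -0.55).

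Jun (ENSMUSG00000052684; chromosome 4, 95049034 to 95052222, minus strand), the founding JUN protein of AP-1, had 3693 normalized counts in the C57BL6 WT library, 1351 in C57BL6-BALB/c WT and 5214 in Cx30-/- vessels. The order of the libraries was the reverse of that of Fosb. The log2 ratio of C57BL6-BALB/c WT to C57BL6 WT was -1.45 (-1.54 to -1.36), a 2.73-fold lower level. Cx30-/- vessels were 3.86-fold above the C57BL6-BALB/c WT library, a log2 ratio of 1.95 (1.86 to 2.04), and 1.41-fold above C57BL6 WT, at 0.50 (0.44 to 0.56). The antisense gene Junos overlaps Jun, and since the libraries did not keep strand, reads of the pair cannot be told apart. A row of Junos had 313, 103 and 453 counts in the same order of libraries.

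Atf3 (ENSMUSG00000026628; chromosome 1, 191170296 to 191218039, minus strand), a stress-induced member of the ATF/CREB family that pairs with JUN proteins, had 501.2 normalized counts in the C57BL6 WT library, 223.6 in C57BL6-BALB/c WT and 488.9 in Cx30-/- vessels. Only the C57BL6-BALB/c WT library was low. Its log2 ratio to C57BL6 WT was -1.16 (-1.40 to -0.93), and that of Cx30-/- to C57BL6-BALB/c WT was 1.13 (0.89 to 1.37), both intervals reaching below a size of 1. Between Cx30-/- and C57BL6 WT the ratio was -0.04 (-0.22 to 0.14).

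The remaining AP-1 subunits differed less. Fos (ENSMUSG00000021250; chromosome 12, 85473890 to 85477273, plus strand), the classical partner of JUN, had 2250 normalized counts in the C57BL6 WT library, 3001 in C57BL6-BALB/c WT and 1869 in Cx30-/- vessels, the same order as Fosb. The highest library was 1.61-fold above the lowest. The log2 ratio of C57BL6-BALB/c WT to C57BL6 WT was 0.42 (0.34 to 0.49). Junb (ENSMUSG00000052837; chromosome 8, 84974484 to 84978718, minus strand), a JUN protein that can oppose JUN at some targets, had 1221, 1206 and 1173 normalized counts. Its 3 intervals all included 0, the widest difference between libraries being 1.04-fold, and the interval of C57BL6-BALB/c WT over C57BL6 WT ran from -0.13 to 0.10. This depended on the scaling, since with endothelial markers the log2 ratio of Junb was 0.62 between the WT libraries and -0.91 for Cx30-/- over C57BL6-BALB/c WT, and with neuron markers the latter was 0.74.

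**Figure D2:**
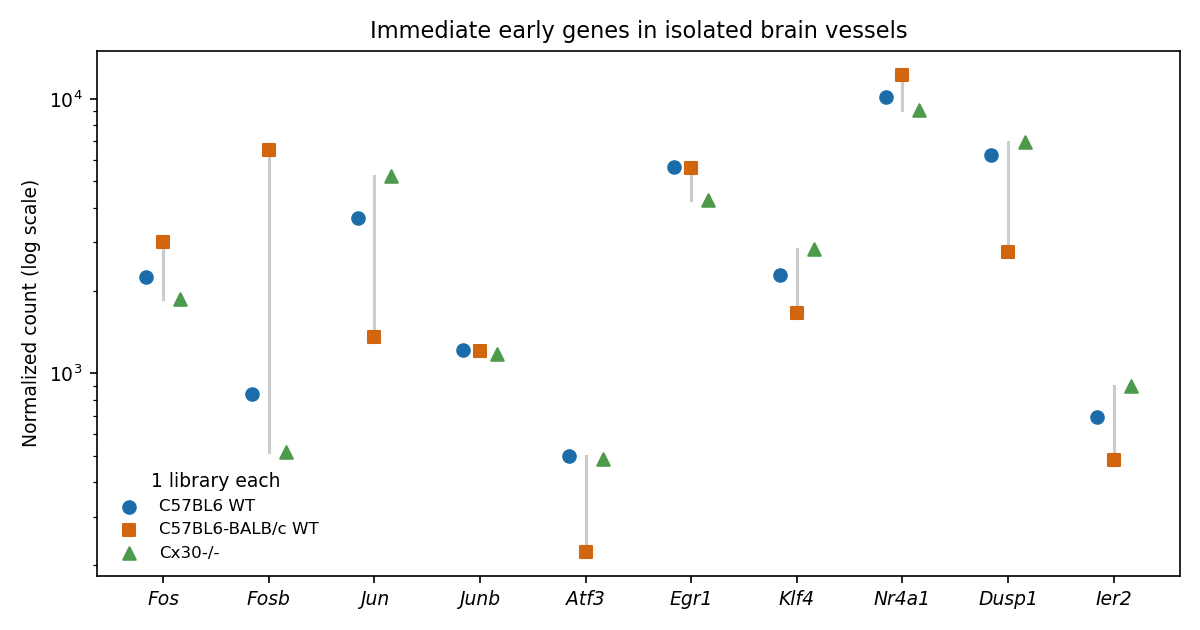
Normalized counts of the 10 members on a log axis, with 1 point per library and a grey line from the lowest to the highest library. Fosb (840.0, 6510 and 515.1 in C57BL6 WT, C57BL6-BALB/c WT and Cx30-/-) and Jun (3693, 1351 and 5214) have opposite orders, and the 3 points of Junb nearly coincide.

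The zinc finger and nuclear receptor factors were under 2-fold in each comparison with the size factors used, but for Cx30-/- over C57BL6-BALB/c WT the log2 ratios were -1.27 for Egr1 and -1.30 for Nr4a1 when scaled to the endothelial markers, and 1.56 for Klf4 when scaled to the neuron markers. Egr1 (ENSMUSG00000038418; chromosome 18, 34859823 to 34864984, plus strand), a zinc finger factor induced by growth factors and by neuronal activity, had 5650 normalized counts in the C57BL6 WT library, 5618 in C57BL6-BALB/c WT and 4263 in Cx30-/- vessels. The WT libraries were level, at a log2 ratio of -0.01 (-0.06 to 0.04), and Cx30-/- was 1.33-fold and 1.32-fold below them, differences that turned to log2 ratios of 0.10 and 0.38 when scaled to the neuron markers. Nr4a1 (ENSMUSG00000023034; chromosome 15, 101254269 to 101274795, plus strand) had 10169, 12257 and 9102 normalized counts, with a widest ratio of 1.35-fold. Klf4 (ENSMUSG00000003032; chromosome 4, 55527143 to 55532466, minus strand), a Krüppel-like factor expressed in endothelium, had 2278, 1655 and 2843 normalized counts. Klf4 was thus ordered like Jun, with C57BL6-BALB/c WT lowest. Its log2 ratio was -0.46 (-0.55 to -0.37) between the WT libraries and 0.78 (0.69 to 0.87) for Cx30-/- over C57BL6-BALB/c WT, which became 0.18 and -0.09 when scaled to the endothelial markers.

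Both remaining members were lowest in the C57BL6-BALB/c WT library, although Ier2 had a log2 ratio of 0.11 to C57BL6 WT once the libraries were scaled to the endothelial markers. Dusp1 (ENSMUSG00000024190; chromosome 17, 26505590 to 26562128, minus strand), a phosphatase that switches off MAP kinases, had 6232 normalized counts in the C57BL6 WT library, 2767 in C57BL6-BALB/c WT and 6937 in Cx30-/- vessels. The C57BL6-BALB/c WT library was 2.25-fold below C57BL6 WT, a log2 ratio of -1.17 (-1.24 to -1.11), and Cx30-/- was 2.51-fold above C57BL6-BALB/c WT, at 1.33 (1.26 to 1.39). The row used is annotated as a retained-intron transcript, and the protein-coding row had 7013, 2503 and 6507 raw counts against 7137, 2562 and 6613 for the row used. Ier2 (ENSMUSG00000053560; chromosome 8, 84661331 to 84662852, minus strand), a small nuclear protein induced early after growth stimulation, had 695.1, 482.8 and 895.9 normalized counts. Its log2 ratio was -0.53 (-0.70 to -0.36) between the WT libraries and 0.89 (0.73 to 1.06) for Cx30-/- over C57BL6-BALB/c WT, the latter becoming 0.023 with endothelial-marker and 1.67 with neuron-marker scaling.

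The first comparison asked how far the WT libraries differed from each other. Among the members, 4 of 10 were at least 2-fold apart, Fosb higher and Jun, Atf3 and Dusp1 lower in C57BL6-BALB/c WT, where 3.43% of the 14791 genes with at least 50 normalized counts in either library were, 1.41% being higher and 2.02% lower. The median log2 ratio of the 10 was -0.24, against 0.00035 for all genes. Markers of several cell types also moved in this comparison. All 10 endothelial markers were lower in C57BL6-BALB/c WT, with a median log2 ratio of -0.67, and the pericyte markers had a median of -0.69, while the neuron markers had a median of 0.20 and the smooth muscle markers of 0.59. When the libraries were scaled to the endothelial markers, a shift of 0.64 on the log2 scale, the ratios became 3.59 for Fosb, -0.81 for Jun, -0.53 for Atf3 and -0.53 for Dusp1, Fos reached 1.05, and 2 members, Fos and Fosb, were at least 2-fold apart. Scaled to the neuron markers, the ratios were 2.68 for Fosb, -1.72 for Jun, -1.44 for Atf3 and -1.44 for Dusp1. Beyond these scalings, which were chosen after seeing the data, the part of the cell mixture in the ratios was not tested.

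The comparison of Cx30-/- with C57BL6 WT vessels set the deleted library beside the WT library of the background that its label gives. The methods of the study give these mice the mixed background, so the pair may also differ in background. With 1 pool each, the deletion cannot be told apart from pool and preparation. In this comparison 0 of 10 members were at least 2-fold apart, where 2.68% of 14776 genes were, 1.42% higher and 1.26% lower. The member ratios ran from -0.71 (Fosb) to 0.50 (Jun), with a median of -0.05. Endothelial markers had a median log2 ratio of 0.23 and neuron markers of -0.53 here. Scaled to the neuron markers, Jun reached 1.01 and was the 1 member past 2-fold. Neutrophil markers, such as S100a8, were at least 2-fold higher in Cx30-/- for 6 of 6 genes, with a median of 1.58. Of these, Mmp8 and Camp passed the count minimum only through the Cx30-/- library, so they could only be called higher. Mmp8 had 8.73 normalized counts in C57BL6 WT and 85.0 in Cx30-/- vessels, and Camp had 23.6 and 75.5. The neutrophil markers summed to 530.0 normalized counts in the C57BL6 WT library, 501.2 in C57BL6-BALB/c WT and 1556 in Cx30-/- vessels. Their part in the member values was not tested.

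The comparison of Cx30-/- with C57BL6-BALB/c WT vessels, which shares a library with each of the other comparisons, had 4 of 10 members at least 2-fold apart, where 8.69% of 14891 genes were, 3.96% higher and 4.73% lower. Fosb was lower and Jun, Atf3 and Dusp1 were higher in Cx30-/- vessels. The median of the 10 was 0.37, against 0.0040 for all genes. Endothelial markers had a median of 0.86 and neuron markers of -0.79. Scaled to the endothelial markers, a shift of 0.87, the log2 ratio of Fosb was -4.53, that of Jun 1.08, that of Atf3 0.26 and that of Dusp1 0.46, and Fos reached -1.55. The members at least 2-fold apart were then 5, namely Fos, Fosb, Egr1 and Nr4a1 lower and Jun higher. Scaled to the neuron markers, the values were -2.88 for Fosb, 2.73 for Jun, 1.91 for Atf3 and 2.11 for Dusp1, and Fos had a ratio of 0.10 in place of -0.68. The members at least 2-fold apart were then 6, namely Fosb lower and Jun, Atf3, Klf4, Dusp1 and Ier2 higher. The directions of Fosb, Jun, Atf3 and Dusp1 in the comparisons with the C57BL6-BALB/c WT library were kept under both scalings.

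**Figure D3:**
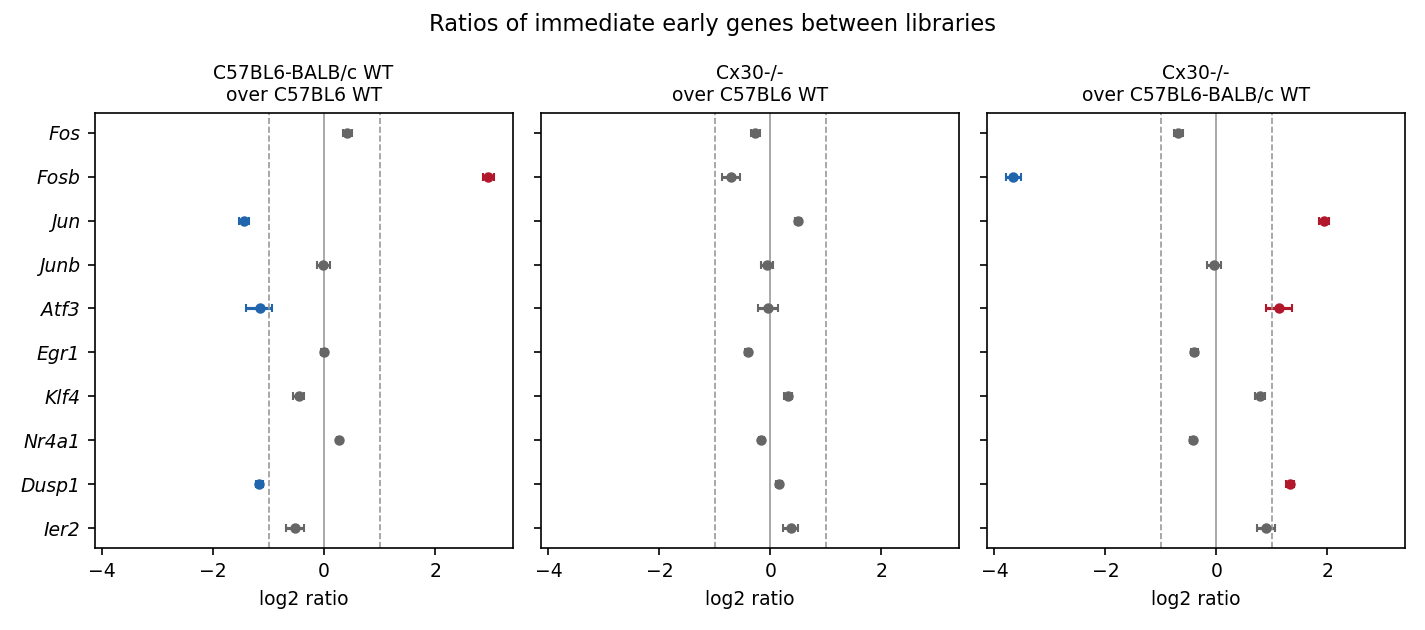
Log2 ratios of the 10 members in the 3 comparisons, with 95% exact binomial intervals of the counts and dashed lines at a 2-fold difference. Red and blue points are at least 2-fold higher and lower, with Fosb at 2.95 and -3.66 in the outer panels and 0 points past the lines in the middle panel.

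With both WT libraries taken as 1 group, the edgeR quasi-likelihood test called 0 of the 10 members at an adjusted p under 0.05, where it called 0.0512% of 17576 genes, 0.0398% as higher and 0.0114% as lower. At an unadjusted p under 0.05 there were 2 members and 8.69% of all genes. These were Fosb, with a log2 fold change of -2.83 and an edgeR adjusted p of 0.202, and Jun, with 1.05 and an edgeR adjusted p of 0.428. DESeq2 also called 0 members. The error in this fit comes only from the WT libraries, which themselves differed 7.75-fold for Fosb and 2.73-fold for Jun. With DESeq2 size factors in the edgeR fit, Fosb alone was called, at an edgeR adjusted p of 0.0231, and without a filter on low counts at 7.22e-11.

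Other genes of the early response were examined from a list of 51 found genes, 20 of them transcription factors and 31 effectors. Between the WT libraries, 2 of the 50 that passed the count minimum were at least 2-fold higher in C57BL6-BALB/c WT and 7 were lower. Of all genes, 1.41% were higher and 2.02% lower in this comparison. The median log2 ratio of the list was -0.28, which became 0.36 when scaled to the endothelial markers. Npas4, a neuronal transcription factor induced by calcium entry, had 2295 normalized counts in the C57BL6 WT library, 11642 in C57BL6-BALB/c WT and 1711 in Cx30-/- vessels. It was 5.07-fold higher in C57BL6-BALB/c WT than in C57BL6 WT, the 23rd highest ratio of all genes, with a log2 ratio of 2.34 (2.28 to 2.40). Egr3, a zinc finger factor related to Egr1, had 956.2, 2178 and 719.6 normalized counts and a log2 ratio of 1.19 (1.08 to 1.29) between the WT libraries.

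The genes that were lower in C57BL6-BALB/c WT were Klf2, Cebpd, Sik1, Gadd45a, Btg2, Rhob and Nfkbia. Klf2, the Krüppel-like factor that endothelium induces under laminar flow, had 7180 normalized counts in the C57BL6 WT library, 2264 in C57BL6-BALB/c WT and 8296 in Cx30-/- vessels, a log2 ratio of -1.67 (-1.73 to -1.60) between the WT libraries. Cebpd, a C/EBP factor of the acute phase response, had 450.6, 151.2 and 572.8 normalized counts and a ratio of -1.58 (-1.86 to -1.30). Sik1, a kinase induced through CREB, had 4432, 1553 and 4555 normalized counts and a ratio of -1.51 (-1.60 to -1.43). The other 4, which include the inhibitor of NF-kappaB encoded by Nfkbia, had ratios between -1.07 and -1.01, close to the 2-fold limit. Scaling to the endothelial markers raises each ratio between the WT libraries by 0.64 on the log2 scale, so most of these calls depend on the scaling.

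In Cx30-/- against C57BL6 WT vessels, 0 of the 51 genes were at least 2-fold apart, where 2.68% of all genes were. The ratios ran from -0.84 (Homer1) to 0.83 (Dusp2) with a median of 0.04. Arc, a synaptic immediate early gene, had 5165, 5291 and 3063 normalized counts and a log2 ratio of -0.75 (-0.82 to -0.69) in this comparison. Against C57BL6-BALB/c WT, 7 were higher and 6 lower in Cx30-/-, with a median of 0.45 that became -0.42 when scaled to the endothelial markers. Of all genes, 3.96% were higher and 4.73% lower in this comparison. The 6 lower genes were Npas4 (-2.77), the MAP kinase phosphatase genes Dusp5 (-1.73) and Dusp4 (-1.36), and Egr3 (-1.60), Egr2 (-1.46) and Egr4 (-1.33). The 7 higher genes were Cebpd (1.92), Klf2 (1.87), Sik1 (1.55), Rhob (1.21), Cyr61 (1.18), Zfp36l1 (1.06) and Gadd45a (1.03). Scaling to the endothelial markers lowers each ratio of this comparison by 0.87, so most of the 7 calls depend on the scaling. With both WT libraries as 1 group, edgeR called 0 of the 51, where it called 0.0512% of all genes tested, and the lowest edgeR adjusted p was 0.231. An unadjusted edgeR p under 0.05 was found for 11 of the 51, where 8.69% of all genes had one.

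**Figure D4:**
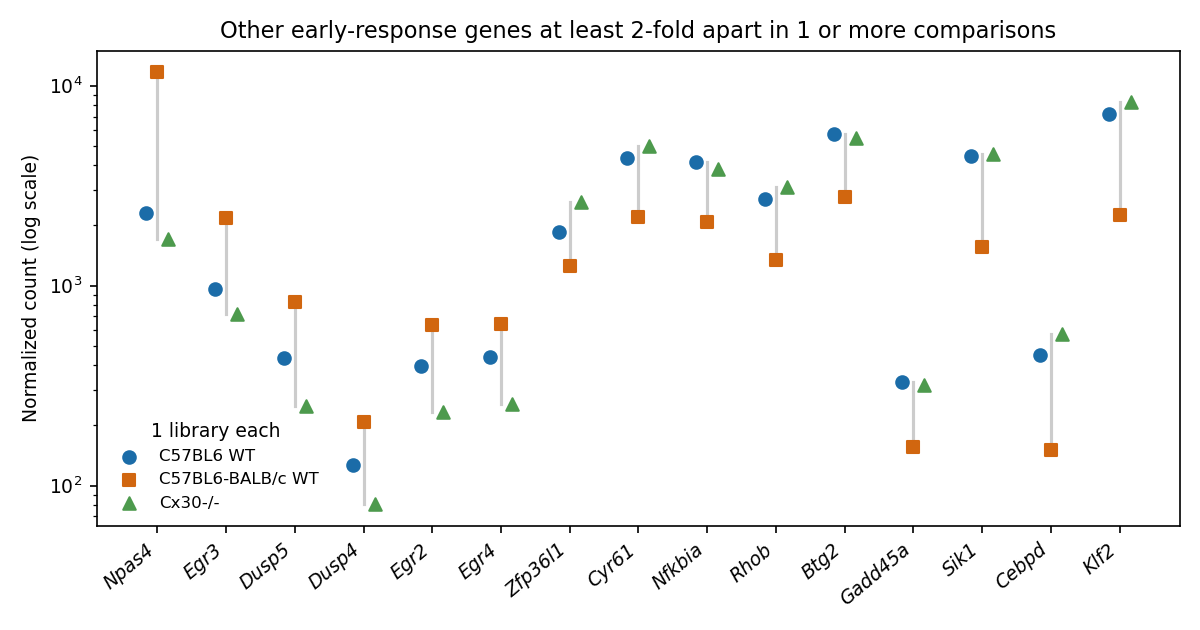
Normalized counts, on a log axis, of the 15 other early-response genes that were at least 2-fold apart in 1 or more comparisons, ordered by the log2 ratio between the WT libraries, with 1 point per library and a grey line over their range. Npas4 (2295, 11642 and 1711 in C57BL6 WT, C57BL6-BALB/c WT and Cx30-/-) is highest in C57BL6-BALB/c WT, and Klf2 (7180, 2264 and 8296) is lowest there.

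The kinases and resident factors that act upstream of these genes include the MAP kinases, CREB and serum response factor. Of 20 such genes, 0 were at least 2-fold apart between the WT libraries or between Cx30-/- and C57BL6 WT, where 3.43% and 2.68% of all genes were, and the medians were 0.16 and 0.06. Against C57BL6-BALB/c WT, Elk1, which encodes a partner of serum response factor, was the 1 of 20 past 2-fold, where 8.69% of all genes were, with 788.5, 1105 and 527.7 normalized counts and a log2 ratio of -1.07 (-1.22 to -0.91). The 20 ratios of this comparison ran from -1.07 to 0.92.

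Heat shock genes, which respond to damaged protein, had 0 of 14 genes at least 2-fold apart in any comparison. Of all genes, 3.43% were between the WT libraries, 2.68% for Cx30-/- over C57BL6 WT and 8.69% for Cx30-/- over C57BL6-BALB/c WT. A count of 0 of 14 is near these shares. The medians were -0.18, 0.08 and 0.29 in the same order. Chordc1 and Hspb1 marked the range between the WT libraries, at 0.47 (0.38 to 0.56) and -0.67 (-1.04 to -0.30). Hspa1a had 16.6, 22.7 and 37.8 normalized counts, under the minimum of 50. This value is uncertain, because reads matching more than 1 place were removed by the authors and Hspa1a has a nearly identical copy. Of 10 genes of the integrated and endoplasmic reticulum stress responses, Ddit4, an inhibitor of mTOR signalling, was the 1 past 2-fold. It had 3929, 1567 and 3416 normalized counts. Its log2 ratio was -1.33 (-1.41 to -1.24) between the WT libraries, where 2.02% of all genes were at least 2-fold lower. For Cx30-/- over C57BL6-BALB/c WT it was 1.12 (1.03 to 1.21), where 3.96% of all genes were at least 2-fold higher.

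Endothelial activation and early cytokine genes were mostly scarce. Of the 11 found, 2 passed the minimum of 50 normalized counts between the WT libraries and 4 in each comparison with Cx30-/-. Il1b, an inflammatory cytokine gene, had 32.3, 24.8 and 58.7 normalized counts and was the 1 gene past 2-fold, with a log2 ratio of 1.24 (0.52 to 2.01) for Cx30-/- over C57BL6-BALB/c WT. In that comparison 3.96% of all genes were at least 2-fold higher. Il1b passed the minimum only through the Cx30-/- library, so it could only be called higher. Il6, Cxcl2 and Tnf had at most 6.48 normalized counts in each library.

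**Figure D5:**
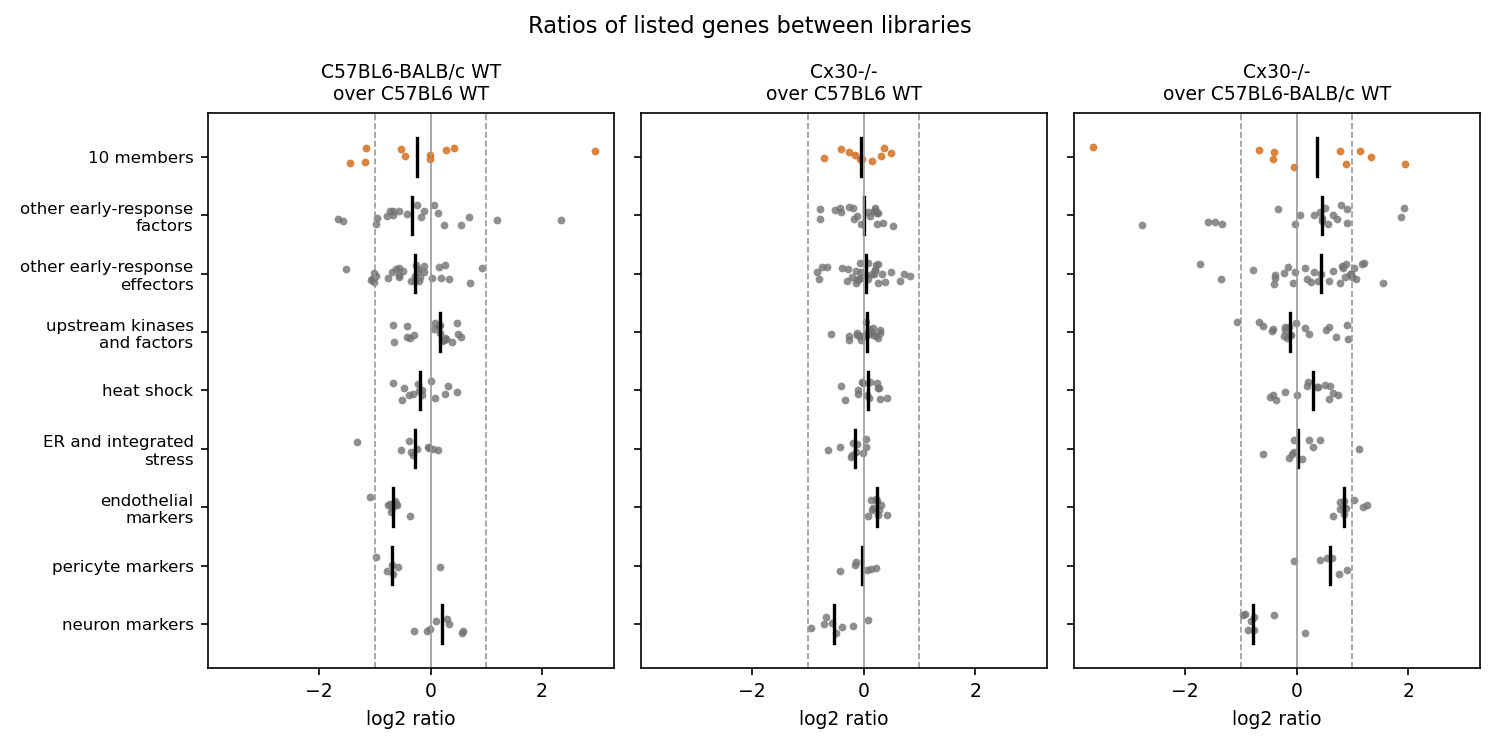
Log2 ratios of the members and of the gene lists in the 3 comparisons, with 1 point per gene passing 50 normalized counts, a black bar at each list's median and dashed lines at a 2-fold difference. The members spread from -1.45 to 2.95 between the WT libraries and from -0.71 to 0.50 between Cx30-/- and C57BL6 WT, and the endothelial markers have medians of -0.67, 0.23 and 0.86.

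The genes outside all lists whose values over the 3 libraries lay nearest to the median profile of the members, by Euclidean distance of log2 values centred on their mean, were Dhx40, Taf11, Hes6, Aspscr1 and Rfxap, with distances from 0.00826 to 0.00971. Dhx40 had 1092 normalized counts in the C57BL6 WT library, 918.1 in C57BL6-BALB/c WT and 1186 in Cx30-/- vessels. With 3 libraries such a likeness describes only that order and size of difference. Members such as Fosb and Jun had opposite orders, so the median profile is not that of every member.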

How the data were processed

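Polyadenylated RNA of brain vessels was measured in 3 libraries, grouped by the genotype and background of the sample labels. Per the labels the reads were called with CASAVA 1.8.2. Alignment was done by the authors with Bowtie after trimming and quality filtering, reads that matched more than 1 place were dropped, and the authors deposited, for each of 82813 Ensembl transcripts, a raw count of alignments on its exons, so that a read on an exon shared by transcripts enters each of them. A second deposited column gives the count as a fraction of a library total, 20654144 to 24830975, together with the transcript length and its uncovered bases. The libraries did not keep strand. The methods name mm10, but 1091 (1.57%) of the matched transcripts start where GENCODE M21 has them, so the build of the deposited positions is unsure and coordinates are from GENCODE M21 on GRCm38. The columns used held 0 samples of other series.

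GENCODE M21 named 69375 rows (83.8%), giving 29917 genes, each represented by its row of largest total. Normalized counts are counts over size factors by the median of ratios (1.15, 0.926 and 0.953 for C57BL6 WT, C57BL6-BALB/c WT and Cx30-/-). A gene was called at a ratio of at least 2 with at least 50 normalized counts in 1 of the 2 libraries compared, after the thresholds the study states, without a pseudocount. Intervals are exact Clopper-Pearson intervals (95%, scipy 1.17.1) and cover counting error only. Across genes, Cx30-/- was tested against both WT libraries by the quasi-likelihood test of edgeR 4.0.16 (R 4.3.3), with TMM factors, the filterByExpr filter and Benjamini-Hochberg adjustment over 17576 genes. On simulated counts of this comparison, with 17576 genes, 100 of 100 changes of log2 size 3 and 100 of 100 of size 5 were found, with 7 other genes called. Smaller changes were not simulated. All genes were drawn with 1 common dispersion and equal WT means, so no difference between the WT libraries was simulated. Recovery for genes that differ between the WT libraries, such as Fosb, was thus not tested.

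Named are the members, Gjb6, genes of the lists called in any comparison or otherwise list extremes, and the 5 genes nearest to the members' median profile. In the cell type marker lists and the list of genes induced by neuronal activity, only some of the called genes are named. Arc, Homer1, Dusp2, Il6, Cxcl2, Tnf and Hspa1a were named after their values were seen. The list of reference genes is not reported here. Of 189 list symbols, 185 were found, 4 of them through RefSeq synonyms. The members and lists were chosen with earlier results of these data known. Alternatives were other scalings, the sum or the longest of a gene's rows, other minimums and fold limits, a pseudocount of 1 and, for the test, DESeq2 1.42.0, DESeq2 size factors and no filter.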

Additional observations from a re-analysis of the deposited data

How the results depend on the processing

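With 1 library per group, the intervals cover counting error only and nothing measures the spread between mice or preparations. No paired analysis was possible because each group holds 1 library and the labels give no replicate numbers. No fit without a WT library was possible, since 2 libraries leave no residual degrees of freedom, and the separate ratios to each WT library take its place. Planned scalings and choices of row moved the log2 ratio of a member by at most 0.061 and changed a sign only for Egr1 (from -0.0082 to 0.0079 between the WT libraries with upper-quartile scaling) and Junb (from -0.04 to 0.02 for Cx30-/- over C57BL6-BALB/c WT with total counts). Scaling to marker genes, added after seeing the data, moved ratios by up to 0.87 and changed 16 of 60 signs, those of members under 2-fold. The number of members at least 2-fold apart between the WT libraries, 4, became 2 with endothelial-marker scaling and 1 at a 4-fold limit. For Cx30-/- over C57BL6 WT the number, 0, became 1 with neuron-marker scaling (Jun) and 1 at a 1.5-fold limit (Fosb). For Cx30-/- over C57BL6-BALB/c WT the number, 4, became 5 with endothelial-marker scaling (Fos, Fosb, Jun, Egr1 and Nr4a1), 6 with neuron-marker scaling (Fosb, Jun, Atf3, Klf4, Dusp1 and Ier2), 7 at a 1.5-fold limit and 1 at a 4-fold limit. The edgeR test called 9 genes and 0 members as reported, 35 genes and 1 member with DESeq2 size factors, 135 genes and 1 member without a filter on low counts, and 14 genes and 0 members with summed rows, and DESeq2 called 7 genes and 0 members. The member was Fosb, whose adjusted p over these fits ran from 7.22e-11 to 1.00. The cause of these shifts was not tested.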

Other observations

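Other markers gave the following values, as a description of the libraries. Astrocyte markers had median log2 ratios of 0.01 between the WT libraries (C57BL6-BALB/c WT over C57BL6 WT), -0.24 for Cx30-/- over C57BL6 WT and -0.18 for Cx30-/- over C57BL6-BALB/c WT. Microglia and macrophage markers had medians of -0.42, -0.17 and 0.10, and oligodendrocyte markers of -0.33, -0.71 and -0.59. Erythroid markers, of which Alas2 was the most abundant, summed to 856.6 normalized counts in C57BL6 WT, 435.3 in C57BL6-BALB/c WT and 1798 in Cx30-/- vessels. Their part in the values of the immediate early genes was not tested.

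The following 3 gene lists were written after the values above had been seen, so they carry no test. Of 10 genes known for induction by neuronal activity, 9 had a log2 ratio above 0 for C57BL6-BALB/c WT over C57BL6 WT, with a median of 0.58. Of the 10, 3 were at least 2-fold higher, where 1.41% of all genes were. These were Inhba, an activin subunit, Ptgs2, an inducible cyclooxygenase, and Rgs2, a regulator of G protein signalling. Inhba had 38.4, 151.2 and 45.1 normalized counts in C57BL6 WT, C57BL6-BALB/c WT and Cx30-/- vessels. In the same order, Ptgs2 had 1179, 3093 and 1424, and Rgs2 had 584.2, 1351 and 458.4. Inhba passed the count minimum only through the C57BL6-BALB/c WT library. Inhba could thus only be called higher in that library over C57BL6 WT, and lower in Cx30-/- vessels against it. These calls of Inhba are counted here. In Cx30-/- vessels, 8 of the 10 were at least 2-fold below the C57BL6-BALB/c WT library, where 4.73% of all genes were, with a median of -1.23, and 2 of the 9 passing the count minimum were at least 2-fold below C57BL6 WT, where 1.26% of all genes were, with a median of -0.63. Neuron markers had medians of -0.79 and -0.53 in the same comparisons and 0.20 between the WT libraries, and their part in these values was not tested. Of 8 glucocorticoid-induced genes, Zbtb16 was higher (1.15) and Cdkn1a lower (-1.48) in C57BL6-BALB/c WT than in C57BL6 WT, and 0 were at least 2-fold apart in either comparison with Cx30-/-. Of all genes, 1.41% were higher and 2.02% lower between the WT libraries. In the comparisons with Cx30-/-, 2.68% were at least 2-fold apart over C57BL6 WT and 8.69% over C57BL6-BALB/c WT. Of 6 flow-responsive endothelial genes, Klf2 (-1.67) and Edn1 (-1.43), which encodes the vasoconstrictor endothelin-1, were lower in C57BL6-BALB/c WT, and 6 of 6 were above 0 for Cx30-/- over each WT library, with medians of 0.17 over C57BL6 WT and 0.48 over C57BL6-BALB/c WT. Endothelial markers were above 0 for 10 of 10 genes in the same comparisons, with medians of 0.23 and 0.86, and their part in these values was not tested.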
